A study of Homo sapiens with 9 samples.

Results

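The genes described here encode the machinery that carries proteins into mitochondria and folds them there. They are the protein-coding genes whose symbol starts with TOMM or TIMM, together with HSPD1, HSPE1, HSPA9, PMPCA, PMPCB, DNAJC19, PAM16, GRPEL1 and SAMM50. This choice gave 35 of the 60671 genes in the count tables, 26 by their TOMM or TIMM symbol and 9 by name, and 32 of them were among the 14150 genes with enough counts to test. RNA was sequenced from H295R cells, a steroid-producing human line grown out of an adrenocortical carcinoma, in 3 groups of 3 libraries: SGPL1 knockout (KO), SGPL1 overexpression (OE) and wild type (WT). SGPL1 encodes sphingosine-1-phosphate lyase, which breaks down sphingosine-1-phosphate. All groups are the same cell line and were left untreated, the RNA was selected for poly-A, and the title of the study links SGPL1 to metabolic rate. Replicates are biological in the submitters' own wording. The sources used here do not give the edit in SGPL1, the overexpression construct, or whether libraries of a group stem from separate cultures or clones. The p-values therefore cover only how far these libraries differ among themselves, and some of that spread may be technical.

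Most mitochondrial proteins are made in the cytosol from nuclear genes and cross the outer membrane through the TOM complex. From there, precursors with a presequence pass the inner membrane through the TIM23 complex and are pulled into the matrix by an Hsp70 motor, a peptidase removes the presequence, and the chaperonin of the matrix helps them fold. Carrier proteins are escorted by small Tim chaperones to the TIM22 complex, and beta-barrel proteins are inserted into the outer membrane by the sorting machinery around SAMM50. Steroid-making cells depend on this route, because the enzymes that cut the cholesterol side chain and finish cortisol are imported into the matrix.

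The sequences of 3 promoter stretches are shown because they belong to the chaperonin pair and to the import receptors that were higher in KO, and because they hold matches to motifs of general regulators of mitochondrial genes. They are RefSeq sequences of the GRCh38.p14 assembly, printed 5′ to 3′, with matches on either strand in capitals to the NRF1 core (GCGCA and GCGC with 1 base of any kind between them), the E-box (CACGTG) and the ETS core (CCGGAAG). By these RefSeq starts HSPD1 and HSPE1 lie head to head. The first sequence is the whole stretch between the start of HSPE1 and the nearest start of HSPD1 before it. It lies at chr2:197500275-197500378 and is read on the plus strand towards HSPE1. In the deposited annotation it also falls inside a longer exon of HSPE1, and HSPE1 lies wholly within the span of HSPD1. The second is the 250 bases before TOMM20 at chr1:235128838-235129087 on the minus strand, and the third is the 250 bases before TOMM70 at chr3:100401090-100401339 on the minus strand.
HSPD1 and HSPE1: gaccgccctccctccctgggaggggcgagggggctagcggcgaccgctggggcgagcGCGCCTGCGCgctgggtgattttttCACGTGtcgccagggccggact
TOMM20: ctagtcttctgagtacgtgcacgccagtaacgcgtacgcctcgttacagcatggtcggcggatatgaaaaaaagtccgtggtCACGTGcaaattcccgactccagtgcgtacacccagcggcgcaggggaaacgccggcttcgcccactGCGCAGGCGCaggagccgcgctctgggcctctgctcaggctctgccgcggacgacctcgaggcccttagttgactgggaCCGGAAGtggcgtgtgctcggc
TOMM70: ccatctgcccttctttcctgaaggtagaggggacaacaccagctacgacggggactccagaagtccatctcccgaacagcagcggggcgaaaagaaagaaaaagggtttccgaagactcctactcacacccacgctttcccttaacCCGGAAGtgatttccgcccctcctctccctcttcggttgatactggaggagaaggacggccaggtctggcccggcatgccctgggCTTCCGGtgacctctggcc
RefSeq windows of 300 bases around the start were held for 32 of the 35 genes, but not for GRPEL1, TIMM8B and TOMM5. None of the motifs searched contains another. A gene could have more than 1 window and counted if any of them matched. The NRF1 core was in windows of 8 of those 32 genes (25%), against 6.98% of 27305 genes with such a window. Those 27305 include genes that were not tested here, and no share over tested genes alone was computed. The 8 were HSPD1, HSPE1, PAM16, TIMM29, TOMM20, TOMM34, TOMM40 and TOMM7, and the windows of HSPD1 and HSPE1 overlap and share their match. The ETS core was in windows of 13 genes (40.6%), against 12.2% of genes, and the E-box was in those of 6 (18.8%), against 8.77%. GC boxes (GGGCGG) were in windows of 22 genes (68.8%), against 48.3% of genes, and CCAAT was in those of 10 (31.2%), against 39.7%. The letters GAANNTTC, a pair of heat shock element units, were matched for HSPD1 alone among these genes (3.12%), against 8.21% of all genes. A match is a description of the letters and does not show that a factor binds.

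The labels were checked against SGPL1 itself before any comparison. SGPL1 had 404, 406 and 503 counts in KO libraries, 892, 588 and 1076 counts in the libraries labelled OE, and 898, 682 and 853 counts in WT libraries. As CPM (counts per 1000000 of the TMM-scaled library total), this was 48.2 ± 5.04 in KO, 93.3 ± 10.7 in the libraries labelled OE and 94.1 ± 9.62 in WT (SD, n = 3 each). KO libraries thus had 51.2% of the WT level (log2 fold change -0.97 ± 0.14 standard error, adjusted p = 0.000105), whereas for the libraries labelled OE against WT the change was -0.01 ± 0.14 (95% interval -0.30 to 0.27, adjusted p = 0.966). SGPL1 counts thus do not bear out the label OE, and its samples are called the libraries labelled OE throughout. Here and below, changes are log2 fold changes with their standard error, and adjusted p-values come from edgeR's quasi-likelihood test over all 14150 genes. All 10 markers of adrenocortical cells were among the genes tested, with a summed level of 6865 to 8661 CPM in KO, 4960 to 5715 CPM in the libraries labelled OE and 4082 to 4629 CPM in WT. Epithelial markers summed to 10.5 to 12.9 CPM in KO, 27.5 to 31.9 CPM in the libraries labelled OE and 23.8 to 28.3 CPM in WT. Fibroblast markers summed to 11.9 to 27.2 CPM over all libraries, leukocyte markers to at most 4.32 CPM and endothelial markers to at most 0.69 CPM. The part of the epithelial markers in the results was not tested. The fibroblast marker LUM, the epithelial markers KRT5 and KRT14 and the leukocyte markers PTPRC, CD3E and CD68 had no count. Library totals ran from 8006873 to 10895080 counts. Transcripts of ribosomal proteins made up 4.07% to 4.85% of counts in KO, 7.23% to 9.26% in the libraries labelled OE and 5.12% to 6.73% in WT, and short genes had higher counts in the libraries labelled OE, so gene length is set beside the results below. In bulk RNA, fewer cells of a type and less RNA per cell cannot be told apart.

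Together the 35 genes took 6353, 6080 and 6400 CPM in KO libraries, 5854, 7074 and 6348 CPM in the libraries labelled OE, and 4930, 5435 and 4611 CPM in WT libraries. The sum was higher in every KO library and every library labelled OE than in the highest WT library. A single gene, HSPD1, made up much of it, with 40.9% to 42.7% of the sum in KO, 33.7% to 37.2% in the libraries labelled OE and 31.5% to 32.1% in WT. Without HSPD1 the sum was 3755, 3557 and 3669 CPM in KO libraries, 3882, 4687 and 3986 CPM in the libraries labelled OE, and 3347, 3692 and 3156 CPM in WT libraries. On that sum KO overlapped WT, and the libraries labelled OE stayed above both. Per length of exon, HSPD1 was also the most abundant gene, at 634.8 ± 25.6 RPKM (CPM divided by exon length in kilobases, SD, n = 3) in KO, 543.4 ± 56.3 RPKM in the libraries labelled OE and 386.4 ± 35.0 RPKM in WT. In WT it was followed by TOMM34 at 99.0 ± 3.80 RPKM, TIMM8B at 93.5 ± 22.5, TIMM23 at 89.5 ± 9.91 and TOMM20 at 85.1 ± 3.28 RPKM. The SDs of TIMM8B and TIMM23 overlap those of their neighbours in this order, so neighbours among these 4 genes are not apart beyond their spread, while the WT libraries of TOMM34 and TOMM20 did not overlap. HSPA9 had 70.3 ± 1.6 RPKM in WT, HSPE1 39.2 ± 5.67 RPKM and GRPEL1 20.0 ± 2.08 RPKM.

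**Figure D1:**
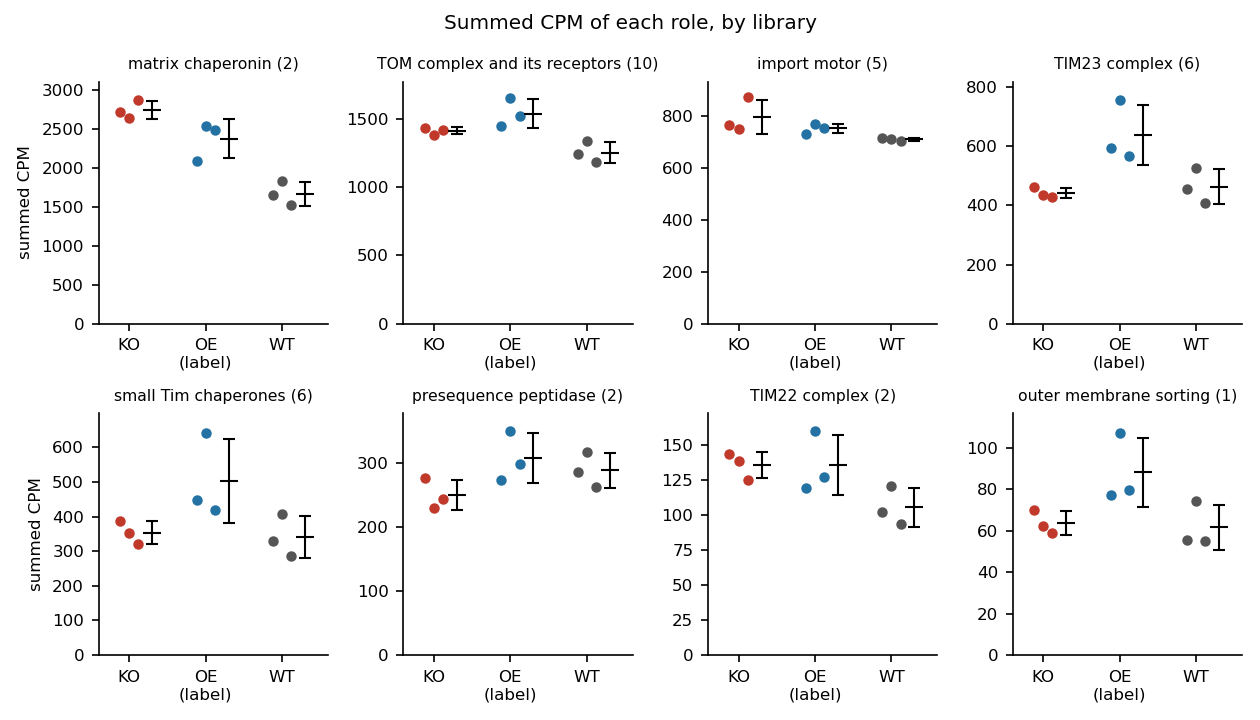
Summed CPM of the genes of each role (number of genes in brackets), 1 point per library, with the mean and SD of 3 libraries as a black bar. The chaperonin pair lies at 2637 to 2862 CPM in KO, 2082 to 2536 CPM in the libraries labelled OE and 1519 to 1826 CPM in WT, while the small Tim chaperones and the TIM23 complex are highest in the libraries labelled OE.

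In KO against WT, 6 of the 32 genes rose and 1 fell (21.9% called at an adjusted p under 0.05 by edgeR's quasi-likelihood test), where 18.8% of all genes tested were called, 9.16% higher and 9.6% lower. That share is near the background, and the median log2 fold change of the 32 genes was 0.06 against -0.01 for all genes. The genes that rose were HSPD1, HSPE1, GRPEL1, TOMM20, TOMM70 and TIMM22, and TOMM7 fell. In 10 of the 32 genes the KO and WT libraries did not overlap, where that held for 35.2% of all genes. The count of called genes was 4 without KO replicate 2, 3 without KO replicate 3 and 3 without WT replicate 1. Of all genes, 12.2%, 12.6% and 12.5% were called in these fits, in that order.

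In the libraries labelled OE against WT, 12 of the 32 genes rose (37.5%), where 20.7% of all genes were called in either direction and 9.65% were called higher. No gene of the 32 was called lower, by edgeR or by DESeq2, and the 17 with an unadjusted p under 0.05 all had a positive change. The median was 0.36 against -0.01 for all genes, 26 of 32 changes were positive, and in 15 genes the groups did not overlap, where that held for 36.4% of all genes. The count was 5 without OE replicate 2, 3 without WT replicate 1, 3 without WT replicate 3 and 6 when libraries were scaled by their totals alone. Of all genes, 12.7%, 9.54%, 8.6% and 20.8% were called in these fits, in that order. Scaling by totals alone moved the median of all genes to -0.13. It called 765 genes higher and 2175 lower over all genes, against 1365 higher and 1559 lower with TMM. Both comparisons with WT use the same 3 WT libraries, and the genes called in both were HSPD1, HSPE1 and GRPEL1.

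The libraries labelled OE against KO gave 11 genes higher and 1 lower (37.5%). Of all genes, 39.7% were called, 19% higher and 20.6% lower. The share in either direction was again near the background, but the calls among the 32 genes were mostly higher. The median of the 32 genes was 0.23 against -0.00 for all genes. In 16 of the 32 the groups did not overlap, where that held for 51.7% of all genes. The count was 6 without KO replicate 2, 7 without KO replicate 3 and 6 without OE replicate 2. Of all genes, 30.3%, 30.2% and 31.3% were called in these fits, in that order. Of the 32 genes, 18 were called in at least 1 comparison and 14 in none. Each call below was repeated in 17 alternative fits, of which 9 left out 1 library each and 8 changed the scaling, the filter, the tool, the groups in the fit, a replicate term, a gene length offset or both replicates 2.

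**Figure D2:**
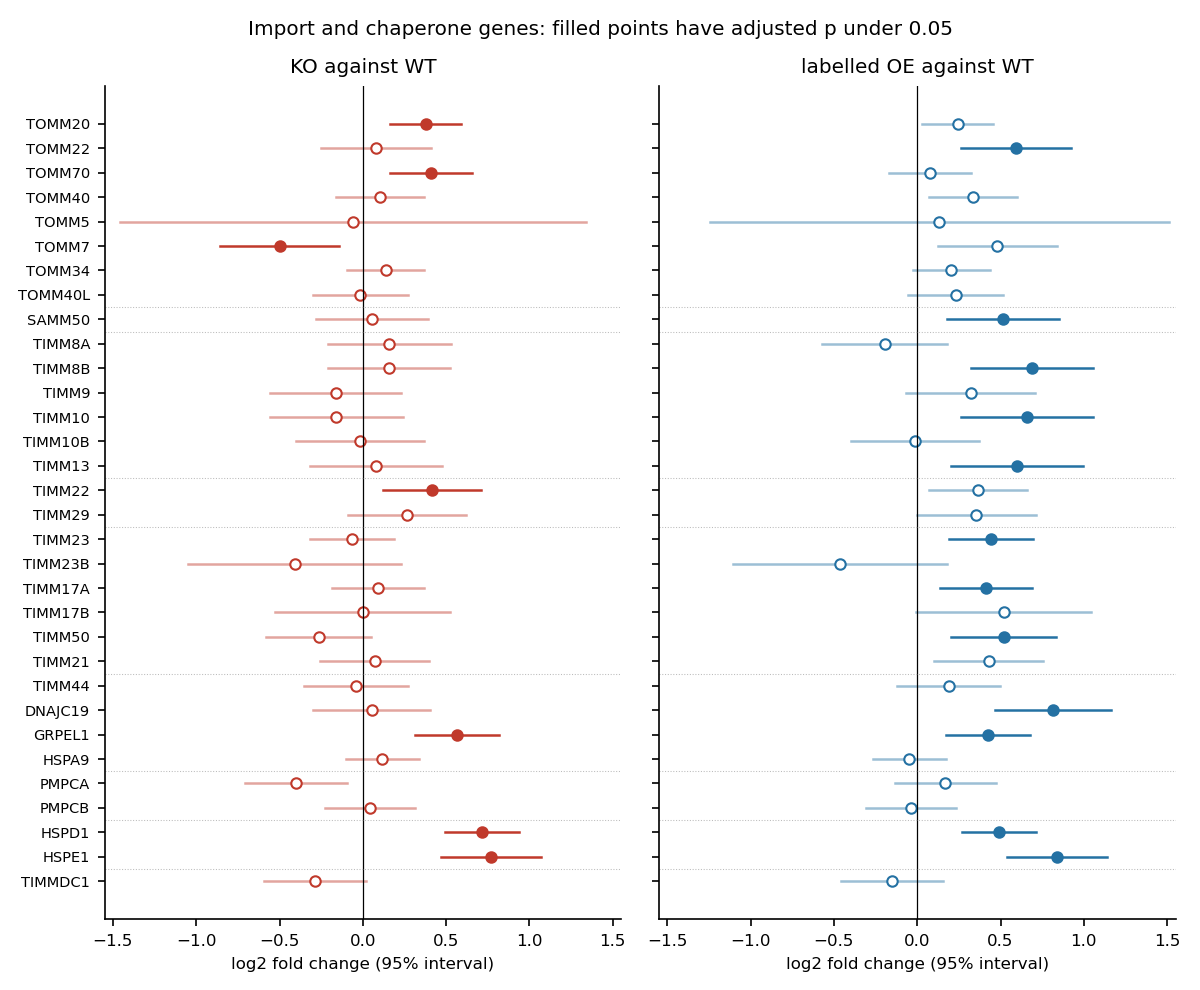
Log2 fold change with its 95% interval for each of the 32 genes tested, in KO against WT (left) and in the libraries labelled OE against WT (right), ordered by role with dotted lines between roles. Filled points have an adjusted p under 0.05, and the filled points number 7 on the left and 12 on the right.

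The chaperonin of the matrix rose in both comparisons with WT. HSPD1 (chr2:197486584-197516737, minus strand), the chaperonin subunit that forms the folding chamber, had 2598, 2523 and 2731 CPM in KO libraries, 1973, 2387 and 2362 CPM in the libraries labelled OE and 1583, 1742 and 1455 CPM in WT. Every KO library and every library labelled OE was above the highest WT library, and all KO libraries were above those labelled OE. The log2 fold change was 0.72 ± 0.11 in KO against WT (adjusted p = 0.000132) and 0.49 ± 0.11 in the libraries labelled OE against WT (adjusted p = 0.00465). Between the libraries labelled OE and KO it was -0.22 ± 0.10, with a 95% interval from -0.45 to -0.00, and did not pass the test (adjusted p = 0.101). In that comparison HSPD1 was called lower with library totals alone (-0.29, adjusted p = 0.0172) and with the length offset (-0.31, adjusted p = 0.0167). HSPE1 (chr2:197500140-197503449, plus strand), the co-chaperonin that closes the chamber, had 119.8, 114.6 and 130.9 CPM in KO libraries, 108.6, 148.6 and 125.3 CPM in the libraries labelled OE and 66.9, 83.2 and 64 CPM in WT. Again no WT library reached the lowest library of the other groups. Its change was 0.77 ± 0.14 in KO against WT (adjusted p = 0.000981) and 0.84 ± 0.14 in the libraries labelled OE against WT (adjusted p = 0.00115). The calls of HSPD1 and HSPE1 against WT kept their direction and their side of the threshold in all 17 alternative fits. Changes were 0.65 to 0.79 for HSPD1 and 0.70 to 0.90 for HSPE1 in KO, and 0.37 to 0.58 and 0.68 to 0.97 in the libraries labelled OE. The median change of the 51 genes tested around the pair on the chromosome was 0.15 in KO. HSPE1 shares 17.9% of its exon bases with other genes, and reads that map to several places, such as any shared with processed copies of these genes, were left out of the counts, so the levels of both are uncertain.

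**Figure D3:**
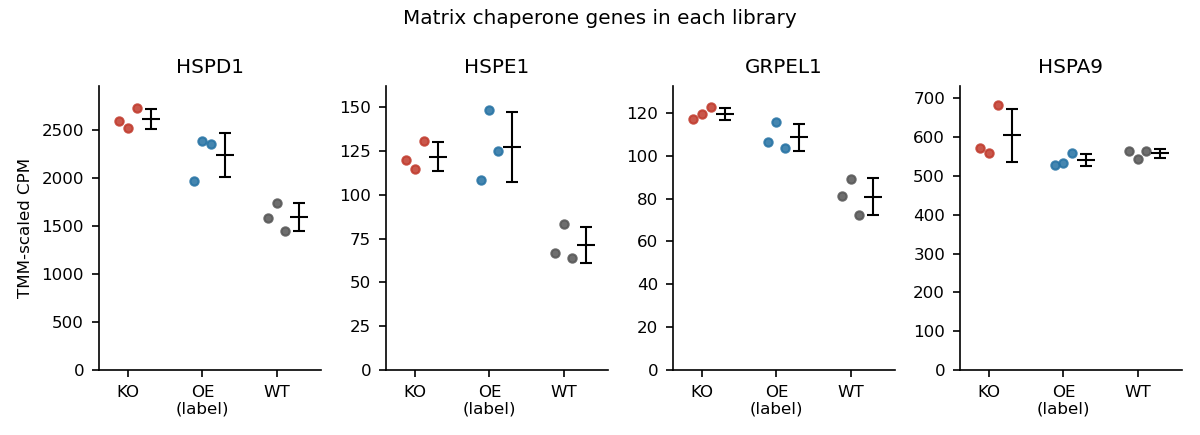
CPM of the chaperonin genes HSPD1 and HSPE1 and of the motor genes GRPEL1 and HSPA9, 1 point per library, with the mean and SD of 3 libraries as a black bar. For HSPD1, HSPE1 and GRPEL1 every WT library lies below every library of the other groups, while for HSPA9 the groups overlap.

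The Hsp70 motor that pulls precursors inwards was uneven. GRPEL1 (chr4:7058895-7068064, minus strand), the exchange factor that recharges the motor with ATP, had 117.0, 119.3 and 122.5 CPM in KO libraries, 106.4, 115.8 and 103.5 CPM in the libraries labelled OE and 81.3, 89.2 and 72.3 CPM in WT. The 3 groups did not overlap, with KO highest and WT lowest. It rose by 0.56 ± 0.12 in KO (adjusted p = 0.003), a call kept in all 17 alternatives, and by 0.42 ± 0.12 in the libraries labelled OE (adjusted p = 0.0203). The call in the libraries labelled OE was lost at an adjusted p of 0.0746 with library totals alone, 0.0504 without OE replicate 2, 0.0708 without WT replicate 1 and 0.114 without WT replicate 3. The motor protein itself, HSPA9, had 573.3, 558.5 and 682.8 CPM in KO libraries, 529.0, 534.1 and 558.5 CPM in the libraries labelled OE and 565.4, 544.0 and 565.5 CPM in WT. The groups overlapped, and the highest value was 1 KO library. Its change was 0.12 ± 0.10 in KO (adjusted p = 0.497, 95% interval -0.10 to 0.34) and -0.05 ± 0.10 in the libraries labelled OE (adjusted p = 0.788, 95% interval -0.27 to 0.17). Set against its exchange factor per length, the RPKM ratio of HSPA9 to GRPEL1 was 2.5, 2.39 and 2.84 in KO, 2.54, 2.35 and 2.75 in the libraries labelled OE and 3.55, 3.11 and 3.99 in WT, so every WT library was above the rest.

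DNAJC19, the J-domain protein that stimulates the motor at the inner membrane, rose in the libraries labelled OE. It had 35.1, 35.8 and 36.8 CPM in KO libraries, 57.2, 74.2 and 51.4 CPM in the libraries labelled OE and 32, 41.6 and 30.3 CPM in WT. Each library labelled OE was above every other library, and KO lay within the range of WT. Its change was 0.81 ± 0.16 in the libraries labelled OE against WT (adjusted p = 0.00341) and 0.76 ± 0.16 against KO (adjusted p = 0.00169), and both calls were kept in all 17 alternatives. In KO against WT it was 0.05 ± 0.17 (adjusted p = 0.869). TIMM44, which tethers the motor to the channel, did not pass the test in any comparison, with changes of -0.04 ± 0.15 in KO and 0.19 ± 0.15 in the libraries labelled OE against WT. PAM16, the partner that holds the J-domain protein in check, had 3 to 11 counts per library and was not tested.

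In the TOM complex, the presequence receptor TOMM20 and the carrier receptor TOMM70 rose in KO while the small subunit TOMM7 fell. TOMM20 (chr1:235109341-235128837, minus strand) had 377.8, 353.1 and 408.5 CPM in KO libraries, 345.9, 342.9 and 350.2 CPM in the libraries labelled OE and 281.0, 303.6 and 293.1 CPM in WT. The 3 groups did not overlap, in the order KO, labelled OE, WT. The change was 0.38 ± 0.10 in KO against WT (adjusted p = 0.0151) and 0.24 ± 0.10 in the libraries labelled OE against WT, which did not pass the test (adjusted p = 0.0977). The KO call was lost at an adjusted p of 0.0707 without KO replicate 3 and 0.0756 without WT replicate 1. TOMM70 (chr3:100363431-100401089, minus strand) had 239.0, 260.6 and 294.1 CPM in KO libraries, 226.4, 192.0 and 211.4 CPM in the libraries labelled OE and 196.7, 184.6 and 216.0 CPM in WT. KO was above both other groups, which overlapped. It rose by 0.41 ± 0.12 in KO against WT (adjusted p = 0.0207) and was lower in libraries labelled OE than it was in KO, with a change of -0.33 ± 0.12 (adjusted p = 0.0317). For KO against WT the call was lost at an adjusted p of 0.0591 with library totals alone, 0.0636 without KO replicate 2, 0.103 without KO replicate 3, 0.0766 without WT replicate 1 and 0.0683 without WT replicate 2. For the libraries labelled OE against KO it was lost at an adjusted p of 0.0657 without replicate 2 of OE and of WT together, 0.0765 without KO replicate 2, 0.143 without KO replicate 3, 0.122 without OE replicate 2 and 0.075 without OE replicate 3. The 51 genes around TOMM20 and TOMM70 had median changes of 0.19 and 0.13 in KO against WT. For those around TOMM70 the median was -0.20 in the libraries labelled OE against KO.

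TOMM7 (chr7:22812628-22822852, minus strand), a small subunit that tunes the assembly of the TOM complex, had 90.3, 96.3 and 98.9 CPM in KO libraries, 155.5, 235.7 and 172.7 CPM in the libraries labelled OE and 124.0, 170.8 and 108.8 CPM in WT. Every KO library was below the lowest of the other groups, and the libraries labelled OE overlapped WT. It was higher in the libraries labelled OE than in KO by 0.98 ± 0.17 (adjusted p = 0.000308), the largest change of the 32 genes under TMM scaling, and that call was kept in all 17 alternatives. With the length offset it was 0.69, below TIMM50 at 0.96. It fell in KO against WT by 0.50 ± 0.17 (adjusted p = 0.0496), and in the libraries labelled OE against WT the change was 0.48 ± 0.17 (adjusted p = 0.0515). The fall in KO was lost at an adjusted p of 0.0513 with the length offset, 0.0637 without replicate 2 of OE and of WT together (change -0.30), 0.127 without KO replicate 1, 0.131 without KO replicate 2, 0.101 without KO replicate 3, 0.061 without OE replicate 3, 0.0786 without WT replicate 1 and 0.23 without WT replicate 2 (change -0.30). TOMM22, the central receptor of the complex, had 141.6, 125.5 and 115.2 CPM in KO libraries, 154.4, 213.6 and 178.3 CPM in the libraries labelled OE and 110.7, 150.9 and 100.4 CPM in WT. The libraries labelled OE were above both other groups, which overlapped. It rose by 0.59 ± 0.16 against WT (adjusted p = 0.0149) and by 0.51 ± 0.16 against KO (adjusted p = 0.0154). Against WT the call was lost at an adjusted p of 0.0505 without OE replicate 2, 0.0774 without WT replicate 1 and 0.0825 without WT replicate 3. Against KO it was lost at an adjusted p of 0.0886 with the length offset (change 0.26), 0.0565 without KO replicate 2, 0.0698 without KO replicate 3 and 0.0554 without OE replicate 2. The channel gene TOMM40, which has called partners in the same complex, was not called, with 310.2, 279.1 and 241.3 CPM in KO libraries, 296.0, 370.4 and 306.5 CPM in the libraries labelled OE and 277.7, 259.2 and 235.4 CPM in WT. All libraries labelled OE were above WT for TOMM40, with a change of 0.33 ± 0.12 (adjusted p = 0.0672). TOMM34, a cytosolic co-chaperone of import, and TOMM40L, a TOMM40 paralogue, had changes between -0.02 and 0.25 over the 3 comparisons and were not called in any. TOMM5 had 3 to 19 counts per library, too few to read a change, TOMM20L had 0 to 5, and TOMM6 had none in any library. All exon bases of TOMM6 are shared with other genes, so its reads could not be counted by the rule used, and its level is unknown.

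**Figure D4:**
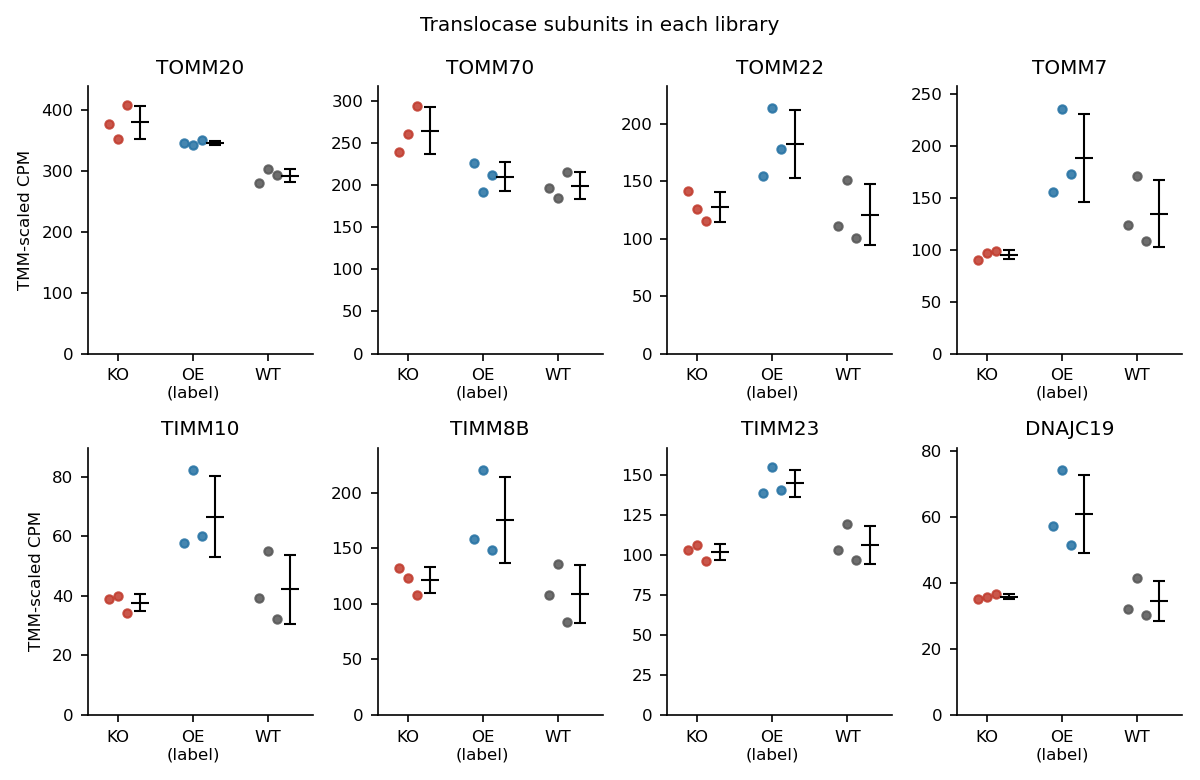
CPM of 8 translocase, small Tim and motor genes, 1 point per library, with the mean and SD of 3 libraries as a black bar. TOMM20 and TOMM70 are highest in KO, TOMM7 is lowest in KO, and TOMM22, TIMM10, TIMM8B, TIMM23 and DNAJC19 are highest in the libraries labelled OE, with replicate 2 of that label the highest point for TOMM22, TOMM7, TIMM10, TIMM8B, TIMM23 and DNAJC19.

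SAMM50, the core of the machinery that inserts beta-barrel proteins, had 69.9, 62.3 and 58.9 CPM in KO libraries, 77.2, 107.2 and 79.6 CPM in the libraries labelled OE and 55.3, 74.1 and 55 CPM in WT. Libraries labelled OE were above both other groups, by a narrow margin over the highest WT library. It rose by 0.52 ± 0.16 against WT (adjusted p = 0.0298) and by 0.46 ± 0.16 against KO (adjusted p = 0.0281). Against WT the call was lost at an adjusted p of 0.0724 with library totals alone, 0.0516 with only the 2 groups in the fit, 0.124 without OE replicate 2, 0.131 without WT replicate 1 and 0.128 without WT replicate 3. Against KO it was lost at an adjusted p of 0.09 without KO replicate 2, 0.0989 without KO replicate 3 and 0.122 without OE replicate 2.

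Among the small Tim chaperones, which ferry hydrophobic precursors across the intermembrane space, 3 of 6 rose in the libraries labelled OE against WT and 4 of 6 against KO, where 9.65% and 19% of all genes were called higher. With the length offset, the 3 calls against WT were kept, whereas against KO TIMM10 alone of the 6 was higher and TIMM8A was lower. TIMM8B had 132.1, 123.6 and 108.5 CPM in KO libraries, 158.4, 220.4 and 148.2 CPM in the libraries labelled OE and 107.7, 135.8 and 83.4 CPM in WT. Each library labelled OE was above both other groups. It rose by 0.69 ± 0.17 against WT (adjusted p = 0.0117) and by 0.53 ± 0.17 against KO (adjusted p = 0.022). Against WT the call was lost at an adjusted p of 0.0512 without WT replicate 1 and 0.0655 without WT replicate 3. Against KO it was lost at an adjusted p of 0.17 with the length offset (change 0.22), 0.0601 without KO replicate 2, 0.0919 without KO replicate 3 and 0.102 without OE replicate 2. Its paralogue TIMM8A was not called, with 14.3, 14.2 and 13.9 CPM in KO libraries, 11.3, 10.5 and 11.4 CPM in the libraries labelled OE and 11.1, 13.1 and 13.9 CPM in WT and changes of -0.19 ± 0.18 against WT and -0.35 ± 0.18 against KO (adjusted p = 0.47 and 0.12). The difference between the paralogues was not tested. TIMM10, a subunit of the main carrier-escorting hexamer, had 39, 39.9 and 34.4 CPM in KO libraries, 57.7, 82.2 and 60.1 CPM in the libraries labelled OE and 39.4, 55 and 32.3 CPM in WT. Its libraries labelled OE were above the rest, and WT replicate 2 stood well above the other WT libraries. It rose by 0.66 ± 0.19 against WT (adjusted p = 0.0207) and by 0.82 ± 0.19 against KO (adjusted p = 0.00259), and the call against KO was kept in all 17 alternatives, although the length offset lowered that change to 0.47. Against WT it was lost at an adjusted p of 0.0809 without OE replicate 2, 0.0904 without WT replicate 1 and 0.113 without WT replicate 3.

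TIMM13, the partner of TIMM8A in its hexamer, had 153.6, 125.1 and 119.1 CPM in KO libraries, 172.0, 256.3 and 142.6 CPM in the libraries labelled OE and 128.5, 147.5 and 100.5 CPM in WT. The groups overlapped, and replicate 2 of the libraries labelled OE stood far above its group. Its changes were 0.60 ± 0.19 against WT (adjusted p = 0.0332) and 0.52 ± 0.19 against KO (adjusted p = 0.0366). Against WT the call was lost at an adjusted p of 0.0643 with library totals alone, 0.0544 with only the 2 groups in the fit, 0.0506 without KO replicate 2, 0.165 without OE replicate 2 (change 0.34), 0.0923 without WT replicate 1 and 0.153 without WT replicate 3. Against KO it was lost at an adjusted p of 0.0535 with library totals alone, 0.206 with the length offset (change 0.23), 0.132 without replicate 2 of OE and of WT together (change 0.27), 0.12 without KO replicate 2, 0.13 without KO replicate 3, 0.214 without OE replicate 2 (change 0.27) and 0.0507 without WT replicate 1. TIMM9, the partner of TIMM10, had 32.3, 26.5 and 25.8 CPM in KO libraries, 30.1, 50.9 and 37.6 CPM in the libraries labelled OE and 27.8, 34.5 and 32.5 CPM in WT, again with overlap. It was called against KO alone, at 0.48 ± 0.18 (adjusted p = 0.0464). That call was lost at an adjusted p of 0.077 with library totals alone, 0.354 with the length offset (change 0.19), 0.179 without replicate 2 of OE and of WT together (change 0.29), 0.145 without KO replicate 2, 0.142 without KO replicate 3, 0.222 without OE replicate 2 (change 0.29), 0.0711 without OE replicate 3, 0.0554 without WT replicate 1 and 0.0505 without WT replicate 3. TIMM10B, a small Tim bound to the TIM22 complex, averaged 19.6 ± 2.83 CPM in KO libraries, 19.7 ± 1.23 CPM in the libraries labelled OE and 19.9 ± 3.93 CPM in WT (SD, n = 3 each) and was not called. TIMM8B, TIMM9 and TIMM13 share 30.1%, 26.6% and 18.8% of their exon bases with other genes, and reads in shared stretches were left out, so their levels are partial.

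In the TIM22 complex, which inserts carrier proteins, the channel gene TIMM22 had 95.5, 96.2 and 85.5 CPM in KO libraries, 76.7, 104.5 and 86.8 CPM in the libraries labelled OE and 65.9, 78.1 and 64 CPM in WT. KO was above WT, and the libraries labelled OE overlapped both. It rose by 0.41 ± 0.14 in KO (adjusted p = 0.0469), close to the threshold, and changed by 0.36 ± 0.14 in the libraries labelled OE (adjusted p = 0.073). The call in KO was lost at an adjusted p of 0.0528 with DESeq2 size factors, 0.0657 with library totals alone, 0.11 without KO replicate 1, 0.155 without KO replicate 2, 0.0584 without KO replicate 3, 0.0651 without OE replicate 3, 0.157 without WT replicate 1 and 0.135 without WT replicate 3. TIMM29, a further subunit, had changes of 0.27 ± 0.17 in KO and 0.35 ± 0.17 in the libraries labelled OE against WT (adjusted p = 0.308 and 0.144).

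In the TIM23 complex, the presequence gate of the inner membrane, 3 of 6 genes rose in the libraries labelled OE against WT, where 9.65% of all genes were called higher. TIMM23, the channel subunit, had 103.2, 106.1 and 96.2 CPM in KO libraries, 138.9, 154.7 and 140.7 CPM in the libraries labelled OE and 103.3, 119.6 and 96.6 CPM in WT. All 3 libraries labelled OE were above both other groups, which overlapped. It rose by 0.44 ± 0.12 against WT (adjusted p = 0.0163) and by 0.51 ± 0.12 against KO (adjusted p = 0.00311). Against WT the call was lost at an adjusted p of 0.0587 with library totals alone, 0.0562 with the length offset (change 0.28), 0.0732 without WT replicate 1 and 0.09 without WT replicate 3. Against KO it was lost at an adjusted p of 0.115 with the length offset (change 0.21). TIMM23 has a near copy, TIMM23B, which had 21 to 50 counts per library, and reads mapping to both were left out, so both levels are uncertain. TIMM50, the receptor that hands presequences to the channel, had 133.2, 125.3 and 119.7 CPM in KO libraries, 213.0, 260.8 and 178.2 CPM in the libraries labelled OE and 138.9, 183.9 and 132.0 CPM in WT. All libraries labelled OE were above KO, but 1 of them lay below the highest WT library. It rose by 0.52 ± 0.15 against WT (adjusted p = 0.0221) and by 0.78 ± 0.15 against KO (adjusted p = 0.000683), and the call against KO was kept in all 17 alternatives. Against WT it was lost at an adjusted p of 0.0538 with library totals alone, 0.085 without OE replicate 2, 0.106 without WT replicate 1 and 0.111 without WT replicate 3. The 51 genes tested around TIMM50 had a median change of 0.28 in the libraries labelled OE against KO.

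TIMM17A, which forms the translocation path with TIMM23, had 127.4, 114.8 and 133.8 CPM in KO libraries, 145.0, 187.1 and 138.1 CPM in the libraries labelled OE and 117.3, 124.8 and 110.4 CPM in WT. Both other groups were below the lowest library labelled OE. Its change against WT was 0.41 ± 0.13 (adjusted p = 0.0339). It was lost at an adjusted p of 0.101 with library totals alone, 0.059 with only the 2 groups in the fit, 0.0525 without replicate 2 of OE and of WT together, 0.0515 without KO replicate 2, 0.132 without OE replicate 2, 0.104 without WT replicate 1 and 0.131 without WT replicate 3. The alternative form TIMM17B averaged 48.9 ± 14.5 CPM in KO libraries, 70.2 ± 26.3 CPM in the libraries labelled OE and 48.9 ± 11.2 CPM in WT (SD, n = 3 each), and its change against WT of 0.52 ± 0.25 did not pass the test (adjusted p = 0.147). TIMM21, which links the complex to TOM and to respiratory chain assembly, had 32.5, 34.2 and 41.8 CPM in KO libraries, 41.4, 50.2 and 47.8 CPM in the libraries labelled OE and 36, 37.8 and 29.6 CPM in WT. The libraries labelled OE were above WT, with a change of 0.43 ± 0.15 that missed the threshold (adjusted p = 0.0574).

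The peptidase that removes presequences has a catalytic subunit, PMPCB, and a partner that holds the substrate, PMPCA. PMPCA had 150.1, 128.2 and 119.1 CPM in KO libraries, 176.4, 238.3 and 175.3 CPM in the libraries labelled OE and 174.8, 197.5 and 152.2 CPM in WT. KO was below both other groups, which overlapped. It was higher in the libraries labelled OE than in KO by 0.57 ± 0.14 (adjusted p = 0.00509), a call kept in all 17 alternatives, and in KO against WT the change was -0.40 ± 0.14 (adjusted p = 0.0639). The 51 genes tested around PMPCA on chromosome 9 had a median change of 0.68 in the libraries labelled OE against KO and -0.52 in KO against WT, both larger than the changes of PMPCA itself and of the same sign. PMPCB had 126.4, 102.6 and 124.8 CPM in KO libraries, 97.5, 112.7 and 124.3 CPM in the libraries labelled OE and 111.5, 120.8 and 111.4 CPM in WT, with overlap between all groups. The RPKM ratio of PMPCA to PMPCB was 1.14, 1.2 and 0.919 in KO, 1.74, 2.03 and 1.36 in the libraries labelled OE and 1.51, 1.57 and 1.31 in WT, with every KO library below the rest. TIMMDC1, which carries a TIMM symbol but is an assembly factor of respiratory complex I, averaged 80.2 ± 11.9 CPM in KO libraries, 88.2 ± 10.8 CPM in the libraries labelled OE and 97.9 ± 11.7 CPM in WT (SD, n = 3 each). Its changes of -0.29 ± 0.15 in KO and -0.15 ± 0.14 in the libraries labelled OE against WT did not pass the test.

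Gene length moved with the comparisons that involve the label OE. Among the 11 shortest genes of the set, which fall in the shortest of 5 length classes of about equal size, the median change in the libraries labelled OE against WT was 0.52, against 0.24 for all 2831 genes of that class. In the next class the medians were 0.24 for 13 genes of the set and 0.11 for all genes. Spearman's rho of change with length was -0.33 over the 32 genes and -0.36 over all genes in that comparison, and 0.08 and 0.14 in KO against WT. These correlations run across genes, which are not independent replicates. With an offset that removes the length trend in each library, 12 genes were called in the libraries labelled OE against WT, and 11 of them were the same genes. TIMM23 was lost (0.28, adjusted p = 0.0562) and TIMM21 was gained (0.49). Over all genes the offset called 1877 higher and 1151 lower in that comparison (21.4%), with a median of 0.06. In KO against WT the offset gave 7 higher genes and 0 lower, with 6 shared, and TOMM7 had an adjusted p of 0.0513. Over all genes it called 1801 higher and 1402 lower (22.6%), with a median of 0.04. In the libraries labelled OE against KO it gave 7 higher and 4 lower genes, with 7 shared, and the median was 0.09. The 4 lower genes were TOMM70, HSPD1, TIMM8A and TOMM20. Over all genes the offset called 2808 higher and 2561 lower in this last comparison (37.9%).

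**Figure D5:**
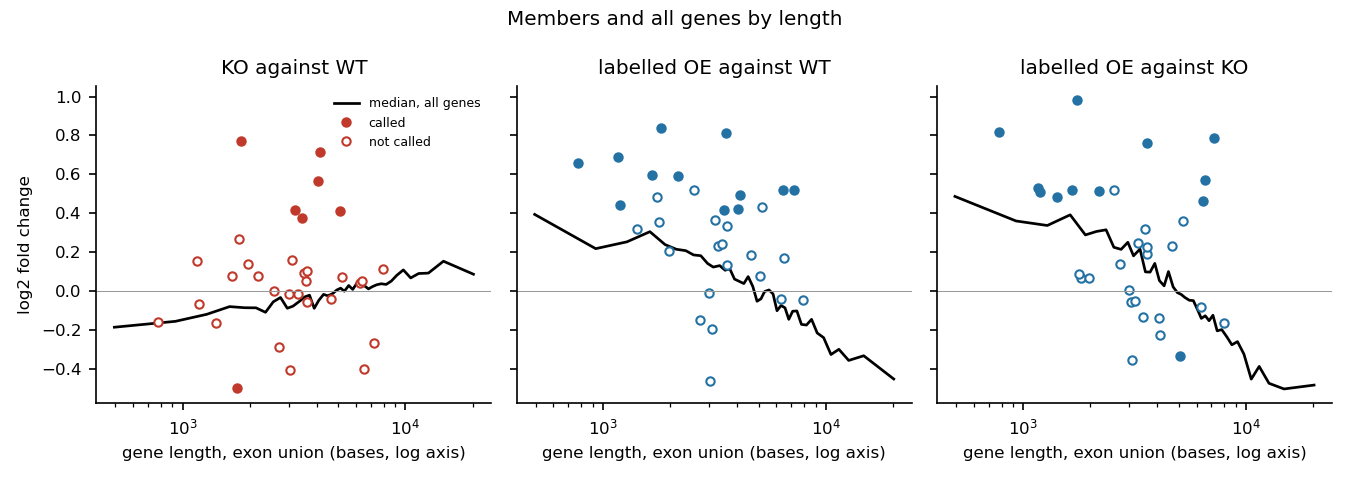
Log2 fold change of each of the 32 genes against gene length on a log axis, in the 3 comparisons, with filled points for an adjusted p under 0.05. The black line is the median of all genes tested in 40 bins of equal size, and it slopes down with length where the libraries labelled OE are compared. Most filled points are genes called higher, so their place above the line follows from the test and says nothing further about length.

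Replicates 2 and 3 of WT and replicate 2 of the libraries labelled OE stood out most for these genes. WT replicate 2 was the highest of its group in 25 of the 32 genes, where it was the highest for 38% of all genes, and replicate 2 of the libraries labelled OE was the highest in 23 of 32, against 41.3% of all genes. WT replicate 3 was the lowest of its group in 25 of 32, against 35.6% of all genes. The same replicates 2 had the highest share of ribosomal protein counts in their groups, at 9.26% in the libraries labelled OE and 6.73% in WT. Without both, 6 genes were called in KO against WT, 13 in the libraries labelled OE against WT and 10 in the libraries labelled OE against KO. Of all genes, 21%, 22.3% and 36.1% were then called, in that order.

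Other genes of import and mitochondrial quality control were read from a list of 54, of which 53 were tested. In KO against WT, 2 rose and 2 fell (7.55%), where 18.8% of all genes were called. The cytosolic chaperones HSPA8 and DNAJB1, which hand precursors over, rose by 0.53 ± 0.12 and 0.46 ± 0.11 (adjusted p = 0.00372 and 0.00738). ATF4, a transcription factor of the integrated and mitochondrial stress responses, fell by 0.74 ± 0.16, and STOML2, a scaffold of the inner membrane, fell by 0.57 ± 0.14 (adjusted p = 0.00303 and 0.00799). In the libraries labelled OE against WT, 18 rose and 3 fell (39.6%), where 20.7% of all genes were called, with a median of 0.26. HSPA8 rose by 0.95 ± 0.12, DNAJB1 by 0.63 ± 0.11, the outer membrane insertase MTCH2 by 0.67 ± 0.12, the matrix chaperone TRAP1 by 0.55 ± 0.13 and the rhomboid protease PARL by 1.12 ± 0.28, while ATF4 fell by 1.10 ± 0.16. Their adjusted p-values lay between 0.000135 and 0.0109. PARL was low in both groups, at 15.1 ± 6.34 CPM in the libraries labelled OE and 6.92 ± 0.928 CPM in WT (SD, n = 3 each). In the libraries labelled OE against KO, 22 rose and 1 fell (43.4%). Of all genes, 39.7% were called, 19% higher and 20.6% lower. The share in either direction was near that of all genes, but the calls in this list were mostly higher. STOML2 rose by 0.87 ± 0.14, VDAC3, a pore of the outer membrane, by 0.58 ± 0.12, and MTCH2 by 0.47 ± 0.12. The MICOS subunits MICOS13 and CHCHD6, which shape the cristae junctions, rose by 0.86 ± 0.20 and 0.98 ± 0.23. CLPX, the unfoldase of a matrix protease, fell by 0.63 ± 0.12 (adjusted p = 0.000554). By sub-list, 6 of 9 outer membrane genes rose in the libraries labelled OE against WT, against 9.65% of all genes called higher. The 5 regulators of the mitochondrial unfolded protein response held 2 of the 3 genes that fell, where 11% of all genes were called lower. These 2 were ATF4 and a gene with low levels whose groups overlapped. The latter had 8.88 ± 2.75 CPM in the libraries labelled OE and 17.9 ± 8.81 CPM in WT (SD, n = 3 each).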

How the data were processed

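Polyadenylated RNA of H295R cells was sequenced in 9 libraries, grouped by their titles and genotype labels. The values are gene counts, deposited by the authors as whole numbers without normalization. Per the file headers, they come from featureCounts 1.5.2 run on Ensembl release 101 of GRCh38. With the options in the header, reads were counted without strand, and reads mapped to several places or overlapping more than 1 gene were left out. The submitters' processing notes name HISAT2 1.03, FastQC, DESeq2, Subread and featureCounts 0.1.0, a featureCounts version other than the one in the headers. Of 60671 identifiers, 60401 had a symbol and 58453 a GENCODE release 29 biotype.

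From the counts, CPM, RPKM (on the exon length in the files) and tests were computed. Tests used edgeR 4.0.16 (quasi-likelihood, R 4.3.3) after TMM scaling and filterByExpr at a minimum count of 10, with all 9 libraries in 1 fit with 6 residual degrees of freedom, and Benjamini-Hochberg adjustment over 14150 genes. At 8006873 to 10895080 counts per library, the median standard error of the 32 genes tested was 0.149 in KO against WT. As a check for a library deposited under 2 names, counts of libraries of a group were compared, and no pair agreed within counting noise (chi-square per gene of 4.38 to 17.3). The alternatives were DESeq2 1.42.0, other scalings, no filter, 2 groups only, a replicate block, a length offset, an adjusted p under 0.01, leaving out stretches of chromosome that shifted together, and leaving out libraries. Genes called in at least 1 comparison, HSPD1, HSPE1 and HSPA9 are named with every value, together with partners in the same complex, and up to 6 other import genes per comparison by smallest adjusted p. The genes and lists were chosen with earlier results of these data known.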

Additional observations from a re-analysis of the deposited data

How the results depend on the processing

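The number of the 32 genes called in KO against WT was 7, and it ran from 3 to 8 when 1 library was left out and was 3 at an adjusted p under 0.01. In the libraries labelled OE against WT it was 12, ran from 3 to 16 without 1 library, and was 6 with library totals alone and 3 at an adjusted p under 0.01. In the libraries labelled OE against KO it was 12, ran from 6 to 14 without 1 library and was 6 at an adjusted p under 0.01. Of all genes, 12.2% to 22.1%, 8.6% to 25.3% and 30.2% to 40.7% were called without 1 library, in that order of comparisons. At an adjusted p under 0.01, 10.1%, 8.14% and 25.9% of all genes were called. With library totals alone, 20.8% were called in the libraries labelled OE against WT. Median changes without 1 library ran from -0.02 to 0.13 in KO against WT, 0.26 to 0.49 in the libraries labelled OE against WT and 0.18 to 0.28 against KO, and the length offset gave 0.09 in the last. The cause of these losses was not tested. The labels give no pairing of replicate numbers, and the deviations of same-numbered libraries correlated by -0.14 to 0.25. The best match had the same number for replicate 3 in each pair of groups and for replicate 2 of OE and WT. In the remaining cases it had another number, and an effect shared by replicate number was not tested. With a replicate block 8, 17 and 14 genes were called in the 3 comparisons in that order, against 22.9%, 26.6% and 43.4% of all genes. Leaving out genes in shifted chromosome stretches gave 7, 12 and 11 calls among 31, 32 and 31 genes of the set. The share over all genes was not computed for this setting. No called gene reversed in any of the 17 alternatives. Low counts limit TOMM5, TOMM20L and PAM16, which share 18.9%, 28.6% and 22.4% of their exon bases with other genes. Reads in shared stretches were left out, and their part in these low counts was not tested.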

Other observations

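The balance between partners of the same machine was read as RPKM ratios, which are set by length and by shared reads as well as by abundance. The ratio of HSPD1 to HSPE1 was 9.59, 9.73 and 9.22 in KO, 8.03, 7.10 and 8.34 in the libraries labelled OE, and 10.5, 9.26 and 10 in WT, so the libraries labelled OE were the lowest. HSPE1 is the shorter gene of the pair. In the libraries labelled OE against KO, the length offset moved HSPE1 from 0.06 to -0.22 and HSPD1 from -0.22 to -0.31. Against WT it moved HSPE1 from 0.84 to 0.68 and HSPD1 from 0.49 to 0.48. The part of length in this ratio was not tested. The ratio of TIMM8A to TIMM8B was 0.0411, 0.0436 and 0.0484 in KO, 0.027, 0.018 and 0.029 in the libraries labelled OE, and 0.0388, 0.0364 and 0.063 in WT, again lowest in the libraries labelled OE. For TIMM17A to TIMM17B it was 1.48, 1.68 and 2.88 in KO, 2.02, 1.36 and 1.75 in the libraries labelled OE, and 1.59, 1.61 and 2.24 in WT, and the groups overlapped. TOMM40 to TOMM40L gave 4.99, 4.65 and 4.16 in KO, 3.95, 5.31 and 4.44 in the libraries labelled OE, and 4.62, 3.72 and 4.49 in WT, with overlap. These ratios were looked at after the values of the genes were known and were not tested.

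Messenger RNAs of the mitochondrial genome, whose products are made inside the organelle and are not imported, made up 0.698%, 0.831% and 0.756% of counts in KO, 1.23%, 1.13% and 1.09% in the libraries labelled OE, and 0.685%, 0.639% and 0.719% in WT. The libraries labelled OE were above both other groups, which overlapped. The share of counts taken by the 35 import and chaperone genes was 0.637%, 0.611% and 0.641% in KO, 0.580%, 0.639% and 0.621% in the libraries labelled OE, and 0.511%, 0.556% and 0.491% in WT. For this share every WT library was below the rest, and KO overlapped the libraries labelled OE. In summed CPM without HSPD1, KO at 3557 to 3755 overlapped WT at 3156 to 3692, so the separation of KO from WT in this sum rests on HSPD1.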
